A study of Homo sapiens with 208 samples.

Results

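PC9 cells were derived from a lung adenocarcinoma of a human patient, and their EGFR gene, which encodes the epidermal growth factor (EGF) receptor, carries an activating deletion in the kinase domain. Gefitinib is a small molecule that blocks the ATP site of that kinase. The comparison described here is PC9 given EGF and gefitinib against PC9 given EGF alone, each arm with 25 arrays taken from 0.5 to 24 h after EGF and paired by time point, which makes 50 of the 208 arrays of the series. The arrays were chosen by their cell line, treatment and time labels. In every group the cells were first starved for 48 h. EGF was given at 100 ng/ml and gefitinib at 0.5 uM, and by the study's methods gefitinib was started ahead of EGF, so that the pair of arrays at 0 h, which is not among the 25, had already met the drug. For reference, PC9 was also followed without either agent and with gefitinib alone, and PC9GRM2, the gefitinib-resistant line derived from PC9 (1 clone that by the labels has no MET amplification), was followed under the same 4 treatments. Each time point of each treatment has 1 array, so time points stood in for replicates, n below is their number, and the p-values measure the spread between time points of 1 course per arm.

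EGF that binds its receptor makes the kinase phosphorylate the receptor's tail, which recruits adaptors and switches on the RAS-ERK cascade and the PI3K-AKT cascade. Active ERK induces transcription factors such as EGR1 and FOS within minutes and, after them, phosphatases and Sprouty proteins that switch ERK off again, so that the mRNAs of these genes are read as a gauge of the cascade. AKT keeps FOXO transcription factors out of the nucleus, and genes that FOXO activates are therefore less expressed while AKT is active. In cells with a mutant receptor the kinase is active without ligand.

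Over the 50 arrays the cells kept an epithelial profile: all 7 epithelial markers on a fixed list were well above background, a flag of the scanner software, on all 50, while none of 5 fibroblast markers was and 2 of those were above background on no array. Of 5 markers of the lung adenocarcinoma lineage, NAPSA, SFTPC and MUC1 were well above background on all 50 and higher with gefitinib (effects 0.96, 0.72 and 2.44 on the log2 scale defined below), while the lineage factor NKX2-1 was so on 3 of 25 arrays with EGF and on 1 of 25 with both agents. Of 6 leukocyte markers 3 were well above background on all 50 arrays (CD68, ITGAM and CD14), and PTPRC, which defines leukocytes, was on 4 and 2 of 25. Of 4 endothelial markers 1 was, VWF (effect 1.87), and PECAM1 was on 49 of 50, whereas CDH5 was on 4 and 5 of 25 and KDR on 1 array. The summed linear signal of the leukocyte markers ran from 893.3 to 1775 with EGF and from 935 to 1703 with gefitinib, and that of the endothelial markers from 132.8 to 1437 and from 824.3 to 1829. Their part in the results was not tested. Per array, 26880 to 34661 of the 45015 features were well above background and 387 to 1498 were saturated. The 4 treatments of a time point shared a slide at fixed positions, so slide position and treatment cannot be told apart. Of 10 spike-in control probes, 9 read higher on the gefitinib arrays, with a median difference of 0.07 and a highest of 0.23 on the log2 scale. The PC9 arrays were scanned on 8 days, each of which held both arms, and values from within the days are given where they bear on a result.

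Gefitinib changed most of the expressed genes of EGF-stimulated PC9. The effect of a gene is the mean over the 25 time points of the log2 signal with EGF and gefitinib minus the log2 signal with EGF alone, given with the standard error (SE) of that mean. Of 13274 genes tested, 10504 (79.1%) were called by limma's moderated test on these paired differences at a Benjamini-Hochberg adjusted p of 0.05, which is the threshold throughout. Of these, 5176 (39%) were higher and 5328 (40.1%) were lower with gefitinib. Since so large a share was called, the size of an effect and its constancy say more about a gene than the call. A stricter rule of an effect of at least 2-fold left 3031 genes (22.8%), of which 1657 were higher and 1374 lower. A total of 2929 called genes (22.1%) moved in 1 direction at all 25 time points, 1482 (11.2%) up and 1447 (10.9%) down. The arms, of 25 arrays each, did not overlap for 515 genes (3.88%). The shares called, higher and lower over all tested genes are the background to the counts of every gene list given here. Each gene was read from its most variable probe, and where another probe, well above background on all 50 arrays, gave a size over 1.5 times apart for an effect printed here, its value is given too. The median effect over all tested genes was -0.01 and the median of its absolute size 0.49. The arrays were brought to a common distribution, so the values are shares of the signal, and fewer cells of a kind and less RNA per cell cannot be told apart.

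The difference between the arms widened with time. In the 0 h pair 99 tested genes were at least 2-fold higher with gefitinib and 150 lower, at 0.5 h these were 187 and 244, and at 24 h they were 2696 and 2575. The SD of the differences over genes went from 0.358 at 0 h to 1.446 at 24 h. The pair at 16 h stood apart from its neighbours, with 2875 and 2777 genes and an SD of 1.531.

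**Figure D1:**
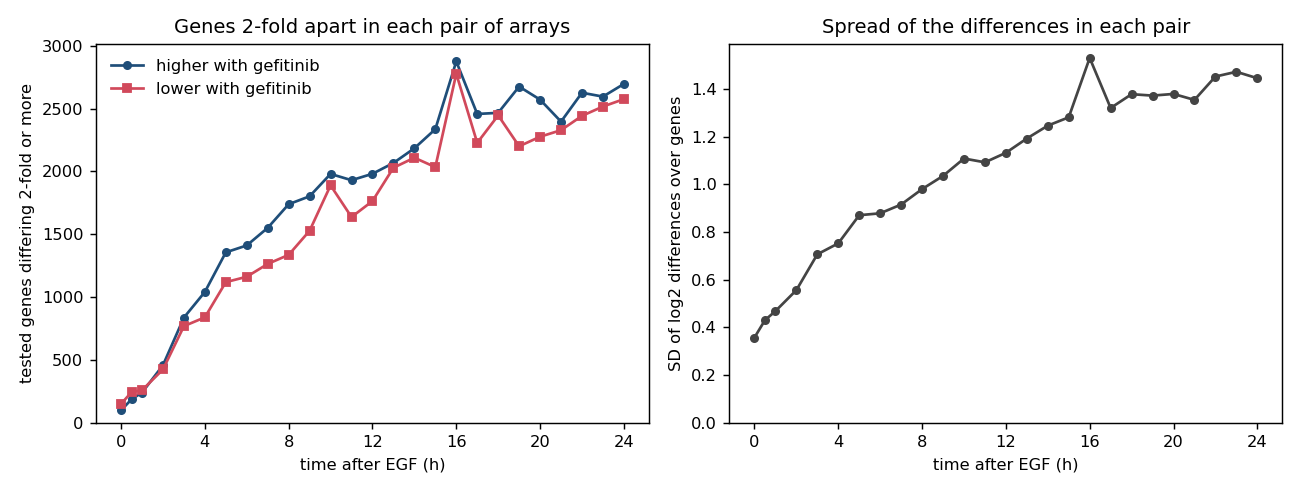
Number of tested genes at least 2-fold apart in each pair of arrays (left, higher and lower with gefitinib) and the SD over genes of the log2 differences in the pair (right), against hours after EGF, 1 pair per point. Both climb from 0 h, where 99 genes are higher and 150 lower, to 24 h, where 2696 are higher and 2575 lower, with a peak at 16 h.

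The genes that report ERK activity fell together, and the fall was already present in the first samples. All 15 tested ERK feedback and target genes were lower with gefitinib, beside 40.1% of all tested genes, and the arms did not overlap for 6 of the 15. Their effects ran from -7.11 to -1.003 with a median of -3.18, and 13 of the 15 were lower at every one of the 25 time points. The median of their differences was -1.49 in the 0 h pair, -1.70 at 0.5 h and -3.29 at 24 h.

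DUSP6, a phosphatase that dephosphorylates ERK and is itself induced by ERK, had the largest fall of any tested gene. Its log2 signal with EGF was lowest at 12.97, with a median of 13.69 and a highest value of 14.13, and with gefitinib it ran from 4.82 through a median of 5.99 to 9.48. Every array of the gefitinib arm thus lay below every array with EGF alone. The effect was -7.11 (SE 0.288, n = 25, limma adjusted p = 1.19e-17). The difference was already -3.31 in the 0 h pair and averaged -4.51 over 0.5 to 4 h (early), -7.23 over 5 to 12 h (middle) and -8.12 over 13 to 24 h (late).

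SPRY4, a Sprouty protein that restrains RAS-ERK signaling, gave log2 signals of 9.36, 9.75 and 11.17 (lowest, median and highest, as in all such triples here) with EGF. With gefitinib these were 4.37, 5.55 and 6.75, and the arms did not overlap (effect -4.67, SE 0.132, adjusted p = 8.1e-21). Unlike DUSP6, SPRY4 was lowered less late than early, with a late minus early difference of 0.78 (SE 0.20, adjusted p = 0.00146). DUSP4, a nuclear ERK phosphatase, went from a median of 12.27 to 9.29 (effect -3.19), and EPHA2, an ephrin receptor under ERK control, from 10.96 to 7.85 (effect -3.18), both without overlap. The ETS factor ETV5 came down more slowly. It differed by -0.68 at 0.5 h and by -6.54 at 24 h (effect -4.56, 24 pairs), and with gefitinib its probe was well above background on 11 of 25 arrays. FOSL1, a partner of JUN in AP-1, and PHLDA1 fell by 4.56 and 4.23 with no overlap. The probes used were well above background on 8 and 12 of 25 gefitinib arrays. Another probe of FOSL1 and 3 others of PHLDA1, well above background on all 50 arrays, read -4.13 and from -3.15 to -3.885. The cell cycle regulators CCND1 (effect -1.75) and MYC (effect -2.21) were lower at all 25 time points, with differences of -1.73 and -1.69 already at 0 h. The MYC probe used was dim, well above background on 20 of 25 arrays with EGF and on 6 with gefitinib, and a bright one, so on all 50, read -1.38, also lower in all 25 pairs.

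Immediate-early genes, many of which encode transcription factors, are switched on without new protein synthesis. Of 12 tested, 11 were lower with gefitinib and 1, FOSB, was higher by 0.24 (SE 0.0983, adjusted p = 0.0267). The median effect was -1.32 and the arms did not overlap for 5. EGR1, a zinc finger factor, gave log2 signals of 9.89, 10.99 and 12.28 with EGF and of 5.84, 6.62 and 8.00 with gefitinib. No gefitinib array reached the lowest EGF array, and the effect was -4.35 (SE 0.103, adjusted p = 1.64e-22). FOS, the founding member of AP-1, had 11.59, 12.11 and 13.19 with EGF against 8.07, 8.77 and 10.34, again without overlap. Its effect of -3.07 (SE 0.153, adjusted p = 8.73e-16) was strongest at 0.5 h, where the pair differed by -4.76, and it shrank to -1.76 at 24 h (late minus early 1.73, SE 0.20, adjusted p = 6.19e-08). JUN fell by 1.79 and the EGR1 relatives EGR2 and EGR3 by 2.88 and 3.89, the latter pair well above background on 5 and 6 of 25 gefitinib arrays.

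The promoter of EGR1 is shown because serum response elements (CArG boxes), through which ERK acts on this class of genes, lie in it. The 250 bases upstream of its start site (RefSeq, GRCh38.p14, chr5:138465229-138465478, plus strand) hold 2 such boxes, in capitals, that begin at -105 and -83 from the start. EGR1 was the 1 gene of the 10 immediate-early genes with a promoter in the table whose 300-base window held the box, which was also present in 1.14% of the windows of all tested genes. Of the ERK feedback and target genes, 0 of 7 promoters held it.
EGR1: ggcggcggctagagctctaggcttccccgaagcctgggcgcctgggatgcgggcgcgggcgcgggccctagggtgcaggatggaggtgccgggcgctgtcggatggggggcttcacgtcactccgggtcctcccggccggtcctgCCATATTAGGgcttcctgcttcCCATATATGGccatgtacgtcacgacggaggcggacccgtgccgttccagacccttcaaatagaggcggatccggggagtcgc

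**Figure D2:**
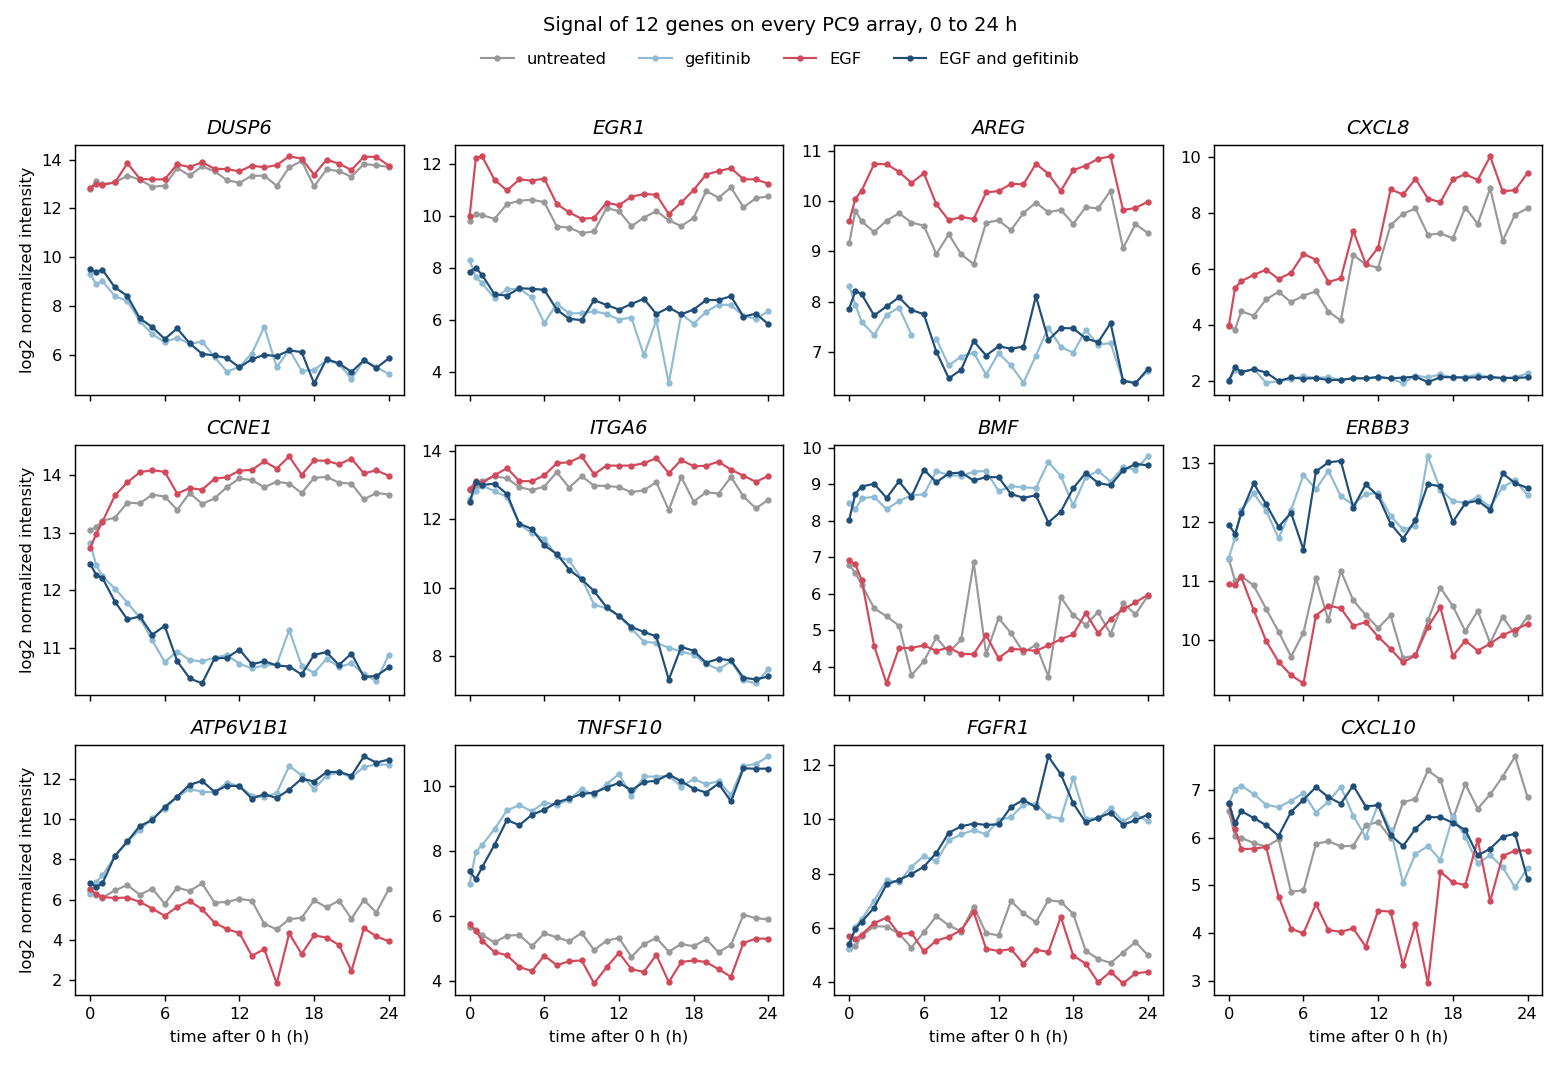
Log2 normalized intensity of 12 genes in PC9 against hours after EGF, 1 array per point, with 1 line for each of the 4 treatments (grey untreated, light blue gefitinib, red EGF, dark blue EGF and gefitinib). DUSP6 and EGR1 are already apart at 0.5 h and stay apart to 24 h, while ITGA6 and FGFR1 separate over hours.

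Among the genes of the receptor family itself, the ligands that cells make for their own receptor went down and the partner receptors ERBB2 and ERBB3 went up. Of 6 ERBB ligands tested, 4 were lower, 1, EGF, was higher by 0.29 (SE 0.0856, adjusted p = 0.00358), and 1 was not called. The share called was near the 79.1% of all tested genes. HBEGF, a membrane-anchored ligand that is shed, gave 9.86, 10.66 and 11.78 with EGF and 6.01, 6.84 and 9.40 with gefitinib. Its arms were fully apart, with an effect of -3.62 (SE 0.173, adjusted p = 3.87e-16). For AREG, amphiregulin, the values were 9.62, 10.34 and 10.90 against 6.37, 7.23 and 8.21 (effect -2.98, SE 0.0888, adjusted p = 1.85e-20), also without overlap. EREG and TGFA fell by 2.45 and 1.60 and were lower in all 25 pairs. The EREG probe used was well above background on 4 of 25 gefitinib arrays, and another, so on all 50 arrays, read -2.18. The promoter of AREG (RefSeq, GRCh38.p14, chr4:74444886-74445135, plus strand) is printed because it holds a full cAMP response element (TGACGTCA on either strand), in capitals, at -65. Such an element was in 3.05% of the windows of all tested genes.
AREG: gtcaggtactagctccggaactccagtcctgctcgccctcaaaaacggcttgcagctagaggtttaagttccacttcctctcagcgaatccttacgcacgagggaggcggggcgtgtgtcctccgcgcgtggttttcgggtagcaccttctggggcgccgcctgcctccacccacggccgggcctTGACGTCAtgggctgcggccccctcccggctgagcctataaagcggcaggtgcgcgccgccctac

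Of 10 receptors and negative regulators of the family, 7 were lower, 2 were higher and 1 was not called. ERBB3, which has little kinase activity of its own and couples the family to PI3K, had log2 signals of 9.27, 10.08 and 11.06 with EGF and 11.53, 12.31 and 13.03 with gefitinib. All gefitinib arrays lay above all EGF arrays (effect 2.22, SE 0.0834, adjusted p = 2.51e-18). ERBB2 gained more slowly, from a difference of 0.45 at 0.5 h to 3.32 at 24 h, with an effect of 2.26 (SE 0.16, adjusted p = 9.46e-13), and its arms overlapped. EGFR mRNA was lower by 0.52 (SE 0.0568, adjusted p = 3.5e-09), in 23 of 25 pairs. The inhibitors that dampen receptor signaling fell further. ERRFI1, which binds and blocks the EGFR kinase, fell by 2.43, CBL, the ubiquitin ligase that sends the receptor to degradation, by 2.34, and SOCS3, a feedback inhibitor of cytokine receptors, by 3.29, all with arms that did not overlap. A brighter probe of CBL read -1.28.

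The shared cascade below the receptor showed no common direction. Of 33 RAS-ERK and PI3K-AKT components, 15 were higher, 13 were lower and 5 were not called, with a median effect of 0.07, and 4 reached 2-fold. MAP2K1, which encodes the kinase above ERK, was lower (effect -1.20), as was the adaptor GRB2 in all 25 pairs. The size for GRB2 is uncertain, since the probe used read -1.25 and 2 brighter ones -0.34 and -0.46. The RAS exchange factor SOS2 was higher (effect 1.25, all 25 pairs).

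Genes that FOXO factors activate, and the insulin receptor arm, rose. Of 15 tested, 12 were higher, 1 was lower and 2 were not called, beside 39% and 40.1% of all tested genes, with a median effect of 1.28. The FOXO motif (TGTTTAC on either strand) was in 1 of 15 promoters of the list and in 2.36% of the windows of all tested genes. PIK3IP1, which binds and inhibits PI3K, gave 4.27, 6.21 and 7.46 with EGF and 7.47, 9.37 and 10.70 with gefitinib. The highest EGF array lay just below the lowest gefitinib array, and the effect was 3.16 (SE 0.0936, adjusted p = 1.85e-20). BCL6, a transcriptional repressor, had 10.58, 11.38 and 13.04 against 13.60, 14.59 and 15.27 (effect 2.96, SE 0.0912, adjusted p = 3.78e-20), again fully apart. KLHL24 (effect 2.44, with 1.40 by another probe) and CITED2 (effect 2.10) did not overlap either. PDK4, which keeps pyruvate out of the mitochondrial oxidation pathway, rose by 2.32, and INSR, the insulin receptor, by 1.65. The insulin receptor substrates split, with IRS2 higher (effect 0.51) and IRS1 lower (effect -0.95). The rises began early: the median difference of the 15 genes was 0.39 in the 0 h pair and 0.68 at 0.5 h. CCNG2, a cyclin associated with arrest, was most raised early and less so late (late minus early -1.43, SE 0.25, adjusted p = 2.69e-05).

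Receptor kinases that can stand in for EGFR moved in both directions. Of 11 bypass receptors and ligands tested, 4 were higher, 5 were lower and 2 were not called, a share called near the 79.1% of all tested genes. FGFR1 and FGFR3, receptors for fibroblast growth factors, and CSF1R, the receptor for colony stimulating factor, had the largest rises. For FGFR1 the log2 signals were 3.96, 5.23 and 6.59 with EGF and 5.98, 9.82 and 12.31 with gefitinib, with an effect of 4.08 (SE 0.377, adjusted p = 1.59e-10). Its early gefitinib arrays overlapped the EGF arm, with differences of -0.27 at 0 h, 0.39 at 0.5 h and 5.78 at 24 h. FGFR3 followed the same course, from -0.15 at 0.5 h to 5.58 at 24 h (effect 4.07, SE 0.32, 24 pairs). CSF1R had 8.43, 8.78 and 9.55 against 10.75, 13.05 and 13.80, with no overlap (effect 3.89, SE 0.209, adjusted p = 3.97e-15). MET, the receptor for hepatocyte growth factor, was lower by 1.62 (SE 0.133), in 24 of 25 pairs. These are RNA levels; receptor protein and activity were not measured on the arrays.

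The cell cycle genes did not move as a block. DNA replication genes fell late, whereas most called mitotic genes were higher. Of 22 replication genes, 16 were lower, 2 were higher and 4 were not called, with a median effect of -0.82, and the median difference went from 0.18 at 0.5 h to -2.03 at 24 h. The late minus early difference was called and negative for all 22, beside 30% of all tested genes. CCNE1, cyclin E, which drives cells into S phase, gave 12.97, 14.04 and 14.32 with EGF and 10.39, 10.82 and 12.27 with gefitinib. It was the 1 member without overlap (effect -2.96, SE 0.147, adjusted p = 8.16e-16). RRM2, a subunit of ribonucleotide reductase, differed by -0.40 at 0.5 h and by -3.64 at 24 h (effect -1.97, SE 0.217), and MCM10, a replication initiation factor, by 0.03 and -3.21 (effect -1.88, SE 0.196). MCM6, part of the replicative helicase, differed by 0.18 at 0.5 h and by -2.31 at 24 h (effect -1.29, SE 0.18, lower in 21 of 25 pairs). The 2 higher members were CDT1, a licensing factor (effect 0.54), and TK1, thymidine kinase (effect 0.33).

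Of 19 mitotic genes, 12 were higher, 1 was lower and 6 were not called, with a median effect of 0.28. Of all tested genes 39% were higher and 40.1% lower. At least 2-fold changes were seen for 3 of the 19, a smaller share than the 22.8% of all tested genes. BIRC5, survivin, which acts at the centromere in mitosis, gave 10.18, 11.67 and 12.59 with EGF and 11.87, 13.03 and 13.42 with gefitinib. The arms overlapped but the gefitinib array was the higher one in all 25 pairs (effect 1.33, SE 0.114, adjusted p = 4.26e-11). PLK1, a mitotic kinase (effect 1.08, SE 0.117), CCNB2, a mitotic cyclin (effect 1.02, SE 0.0596), and KIF11, the spindle motor (effect 0.74, SE 0.0572), were higher in all 25 pairs too. The other mitotic genes had effects between -0.25 and 0.70. The median difference of the list was 0.64 at 4 h, 0.14 at 10 h, 0.44 at 12 h, 0.11 at 14 h, 0.55 at 16 h and -0.27 at 24 h.

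The promoters of MCM6, PLK1 and KIF11 are shown because they carry the elements that name the classes. The E2F site (TTTCGCGC or TTTGGCGC on either strand) was found in 7 of 18 replication promoters, beside 2.09% of the windows of all tested genes and 1.18% of all promoters. The cell cycle homology region (CHR, TTTGAA on either strand) was found in 10 of 14 mitotic promoters, beside 10.0% and 15.4%. MCM6 (RefSeq, GRCh38.p14, chr2:135876444-135876693, minus strand) has 4 E2F matches that overlap in pairs, in capitals, beginning at -152, -148, -90 and -86. PLK1 (chr16:23678639-23678888, plus strand) has a CHR at -29 and KIF11 (chr10:92592880-92593129, plus strand) has one at -28, read on the opposite strand. A match describes the letters and is no evidence of binding.
MCM6: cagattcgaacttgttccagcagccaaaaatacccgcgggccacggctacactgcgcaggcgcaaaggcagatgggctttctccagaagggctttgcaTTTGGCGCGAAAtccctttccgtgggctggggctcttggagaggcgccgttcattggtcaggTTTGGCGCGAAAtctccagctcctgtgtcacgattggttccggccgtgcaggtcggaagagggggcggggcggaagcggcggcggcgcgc
PLK1: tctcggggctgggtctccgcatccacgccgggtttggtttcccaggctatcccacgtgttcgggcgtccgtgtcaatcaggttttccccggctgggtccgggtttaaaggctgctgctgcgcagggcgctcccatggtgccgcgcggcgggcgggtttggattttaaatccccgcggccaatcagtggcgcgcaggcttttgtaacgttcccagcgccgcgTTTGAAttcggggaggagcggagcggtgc
KIF11: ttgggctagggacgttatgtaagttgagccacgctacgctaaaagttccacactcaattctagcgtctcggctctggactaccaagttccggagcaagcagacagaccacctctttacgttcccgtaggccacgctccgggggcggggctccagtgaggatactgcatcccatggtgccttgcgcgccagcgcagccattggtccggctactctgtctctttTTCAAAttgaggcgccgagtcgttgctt

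The inhibitors of cyclin-dependent kinases were divided, with 4 of 7 higher and 3 lower. CDKN1C, p57, gave 5.44, 6.50 and 6.85 with EGF and 7.00, 9.25 and 10.10 with gefitinib, with no overlap (effect 2.83, SE 0.159, adjusted p = 1.02e-14). CDKN1B, p27, whose gene FOXO activates, was higher in all 25 pairs (effect 1.05, SE 0.0622), and CDKN2C rose by 1.27. CDKN1A, p21, went the other way in all 25 pairs (effect -1.72, SE 0.0636, adjusted p = 1.95e-18), with a difference of -1.53 already in the 0 h pair.

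Among apoptosis genes, 1 initiator, BMF, rose steeply and most survival genes fell. Of 8 BH3-only genes, whose products start mitochondrial apoptosis, 5 were higher, 2 were lower and 1 was not called, a share called near the 79.1% of all tested genes. BMF had log2 signals of 3.55, 4.59 and 6.81 with EGF and 7.95, 9.03 and 9.56 with gefitinib. Each gefitinib array exceeded each EGF array (effect 4.09, SE 0.143, adjusted p = 6.01e-19), and its probe was well above background on 19 of 25 EGF arrays. BAD rose by 1.52 in all 25 pairs. HRK rose by 1.11 in all 25 pairs by the probe used, while a brighter probe read 0.25, with 16 pairs higher and 6 lower. BCL2L11, BIM, was higher by 0.35 (SE 0.0766, adjusted p = 0.000168) in 20 of 25 pairs, but 3 other probes of it, each well above background on all 50 arrays, read -0.09, 0.08 and 0.94, so its size is uncertain. Of 9 survival and effector genes of the BCL2 and inhibitor of apoptosis families, 7 were lower, 1 was higher and 1 was not called. BCL2L1, BCL-xL, was lower in all 25 pairs, from 6.29, 7.19 and 8.33 with EGF to 4.44, 5.41 and 7.17 (effect -1.55, SE 0.0715, adjusted p = 1.66e-16). BIRC3 fell by 1.62, with a late minus early difference of -2.04 (SE 0.28). BCL2 was lower in the middle window (-2.48) and differed by 0.65 at 24 h (effect -1.11, SE 0.235, lower in 18 of 25 pairs), with means of 1 sign on 5 of 8 scan days.

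Genes for secreted inflammatory factors fell as well. Of 10 chemokine and cytokine genes tested, 9 were lower and 1, TNF, was higher by 0.47 (SE 0.122, adjusted p = 0.00104), with a median effect of -2.04. CXCL8, interleukin-8, had 5.30, 7.35 and 10.01 with EGF. With gefitinib its probe was not well above background on any of the 25 arrays. The size of the measured effect of -5.33 (SE 0.314, adjusted p = 2.54e-14) is therefore uncertain. With each gefitinib array set no lower than its dimmest signal well above background, the fall was 39.4-fold. That is no firm lower limit, since signals so dim seldom clear the flag. KCNJ13, with a median of 2.73 with EGF, did so on 3 of 25 arrays. CXCL1, a neutrophil attractant like CXCL8, gave 8.86, 10.28 and 12.06 against 5.27, 6.87 and 8.75 and did not overlap (effect -3.48, SE 0.349), and the fall was larger late (late minus early -3.88, SE 0.38). CSF2, the growth factor GM-CSF, was down from the outset, with -2.95 in the 0 h pair and -3.02 at 0.5 h (effect -3.24, SE 0.122), and it was well above background on 4 of 25 gefitinib arrays. IL1B, interleukin-1 beta, fell by 1.81.

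Matrix proteases and the plasminogen system were split 4 higher to 5 lower of 10. MMP1, interstitial collagenase, was 0.05 apart at 0.5 h and -5.07 at 24 h (effect -3.29, SE 0.321). PLAUR, the receptor for urokinase, had 12.27, 12.63 and 13.20 against 8.93, 9.62 and 11.03, with no overlap (effect -2.98, SE 0.165, adjusted p = 7.19e-15). PLAT, tissue plasminogen activator, was lower by 1.55, and the membrane protease MMP14 was higher by 1.81 in all 24 pairs measured.

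Interferon-stimulated genes were mostly higher, with 11 of 14 higher, 2 lower and 1 not called, and a median effect of 1.03, beside -0.01 over all tested genes. IFITM1, a membrane protein that blocks virus entry, rose from 2.01, 3.36 and 4.74 with EGF to 4.64, 7.58 and 9.36 (effect 4.08, SE 0.487, adjusted p = 1.88e-08). With EGF, 5 of its 25 arrays were well above background. Its difference was 0.01 at 0.5 h and 7.31 at 24 h, so the overlap came from the early arrays. IFI6, an interferon-induced mitochondrial protein, went from 7.67, 8.09 and 8.41 to 8.07, 10.22 and 11.30 (effect 1.95, SE 0.203), with 3.61 at 24 h. IFIT1, which binds viral RNA, was higher in all 25 pairs (effect 1.14, SE 0.0793). The list's members thus rose at different times, and its median difference was 0.98 at 4 h, 1.15 at 12 h and 0.49 at 24 h. The promoter of IFI6 (RefSeq, GRCh38.p14, chr1:27672193-27672442, minus strand) is printed because it holds 3 interferon-stimulated response elements (ISRE, searched on either strand as a pair of GAAA repeats with 2 bases of any kind between them), in capitals, beginning at -156, -115 and -93. The element was in 9 of 11 promoters of the list and in 2.88% of the windows of all tested genes.
IFI6: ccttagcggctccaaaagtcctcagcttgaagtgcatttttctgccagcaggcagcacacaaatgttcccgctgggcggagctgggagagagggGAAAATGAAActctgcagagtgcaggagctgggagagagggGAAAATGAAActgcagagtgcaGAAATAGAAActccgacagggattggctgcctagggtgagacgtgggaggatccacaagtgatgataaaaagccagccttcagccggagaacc

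Most ribosome biogenesis genes were lower. Of 18 tested, 15 were lower, 2 were higher and 1 was not called, with a median effect of -1.24, and 13 of the 18 changed at least 2-fold, beside 22.8% of all tested genes. NOP2, an rRNA methyltransferase, gave 12.09, 12.93 and 13.55 with EGF and 10.33, 11.04 and 12.20 with gefitinib and was lower in all 25 pairs (effect -1.83, SE 0.0647, adjusted p = 7.02e-19). UTP20, of the small subunit processome, fell by 1.68. PES1 was an exception, with -0.23 at 0.5 h and 3.04 at 24 h (effect 0.90, SE 0.248). The E-box CACGTG, to which MYC binds, was in 7 of 13 promoters of the list and in 9.81% of the windows of all tested genes.

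Of 11 glycolysis genes, 7 were lower, none was higher and 4 were not called (median effect -0.61). The share called was below the 79.1% of all tested genes. HK2, hexokinase 2, which traps glucose in the cell, had 8.13, 9.44 and 10.35 against 5.57, 6.51 and 7.81 and did not overlap (effect -2.67, SE 0.144, adjusted p = 4.75e-15). The difference was -0.32 at 0.5 h and -3.17 at 24 h. PFKP, a phosphofructokinase, fell by 2.27, PGK1 by 1.28 (a brighter probe read -0.53) and the glucose transporter SLC2A1 by 1.26. Of 17 sterol and fatty acid synthesis genes, 13 were lower, 1 was higher and 3 were not called (median effect -0.45). Of 12 ATF4 targets, which serve amino acid supply, 6 were lower and 4 higher, and SLC7A11, the cystine transporter, had the largest change (effect -1.90, SE 0.264). Of 16 lysosome and autophagy genes, 9 were higher, 4 were lower and 3 were not called, a share called near the 79.1% of all tested genes. ULK1, the kinase that starts autophagy, went from 10.15, 11.12 and 12.03 to 12.48, 13.26 and 14.18 without overlap (effect 2.11, SE 0.0894, adjusted p = 2.88e-17), ATG14 rose by 1.22 and BNIP3 fell by 1.03.

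**Figure D3:**
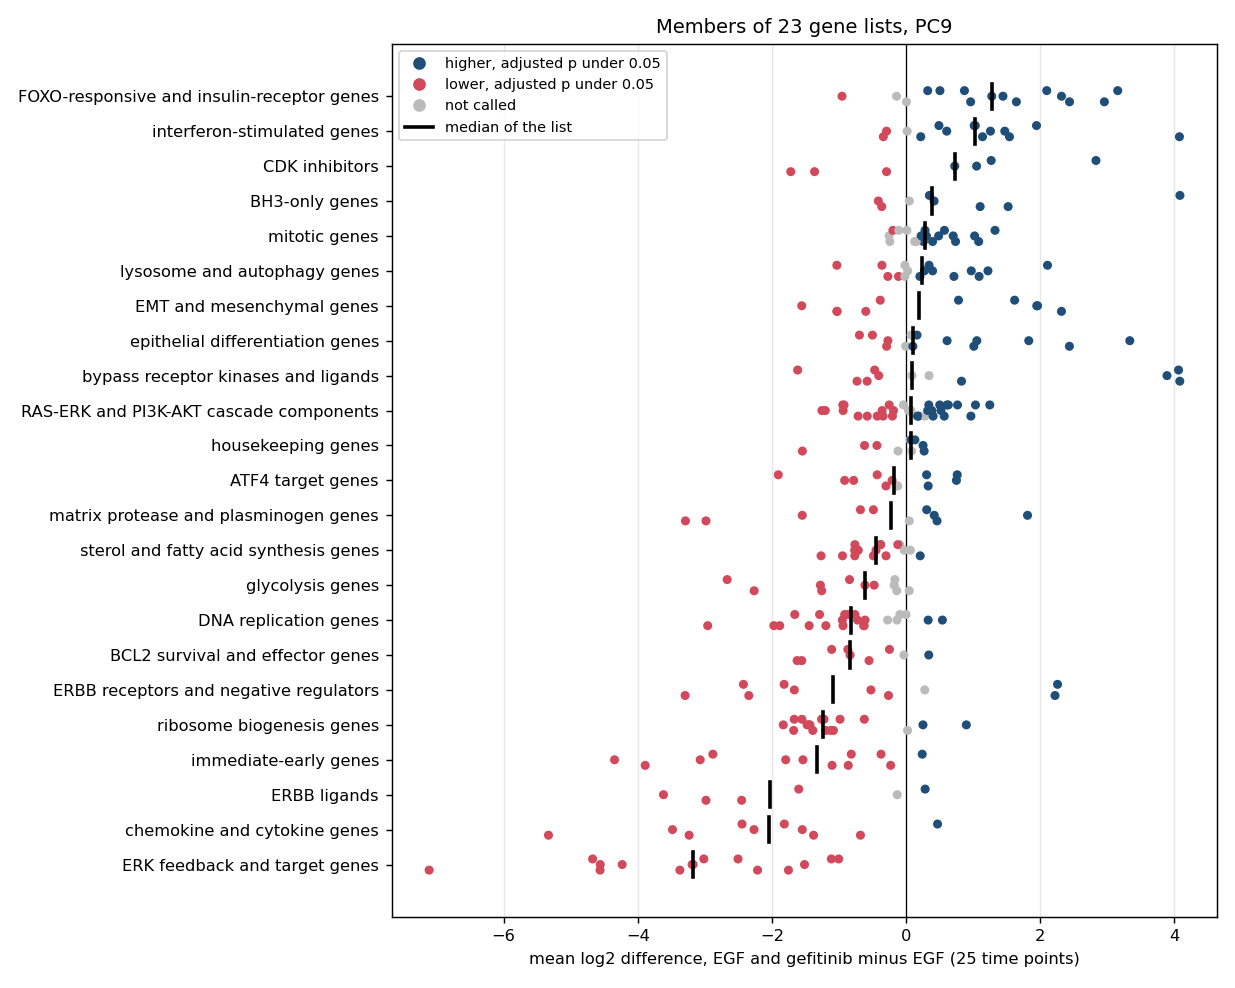
Gefitinib effect (mean log2 difference over 25 time points, horizontal axis) of each tested member of the gene lists, 1 point per gene, grouped by list, with the list's median marked. All 15 ERK feedback genes lie below 0, 12 of 15 FOXO-responsive genes were called above it, and the cascade components scatter around it.

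Epithelial identity showed single large changes and no common shift. Of 15 epithelial genes, 8 were higher, 4 were lower and 3 were not called (median effect 0.10). The share called was near the 79.1% of all tested genes. ELF3, an epithelial ETS factor, had 8.35, 9.31 and 11.26 with EGF and 11.71, 12.87 and 14.42 with gefitinib and did not overlap (effect 3.34, SE 0.142, adjusted p = 2.94e-17). MUC1, a surface mucin, differed by -0.09 at 0.5 h and 4.17 at 24 h (effect 2.44, SE 0.289), and the tight junction gene CLDN3 rose by 1.83 with no overlap. Of 10 mesenchymal genes 5 were higher and 5 were lower, among them SPARC (effect 2.32) and SNAI1 (effect 1.95), which rose, and CCN2 (effect -1.55), which fell. Of 10 genes often used as references, 4 were higher, 3 were lower and 3 were not called. GAPDH differed by 0.06 (SE 0.0344, adjusted p = 0.103), while HPRT1 was lower by 1.55 (SE 0.188) and TBP by 0.62 (SE 0.0543), each falling with time.

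**Figure D4:**
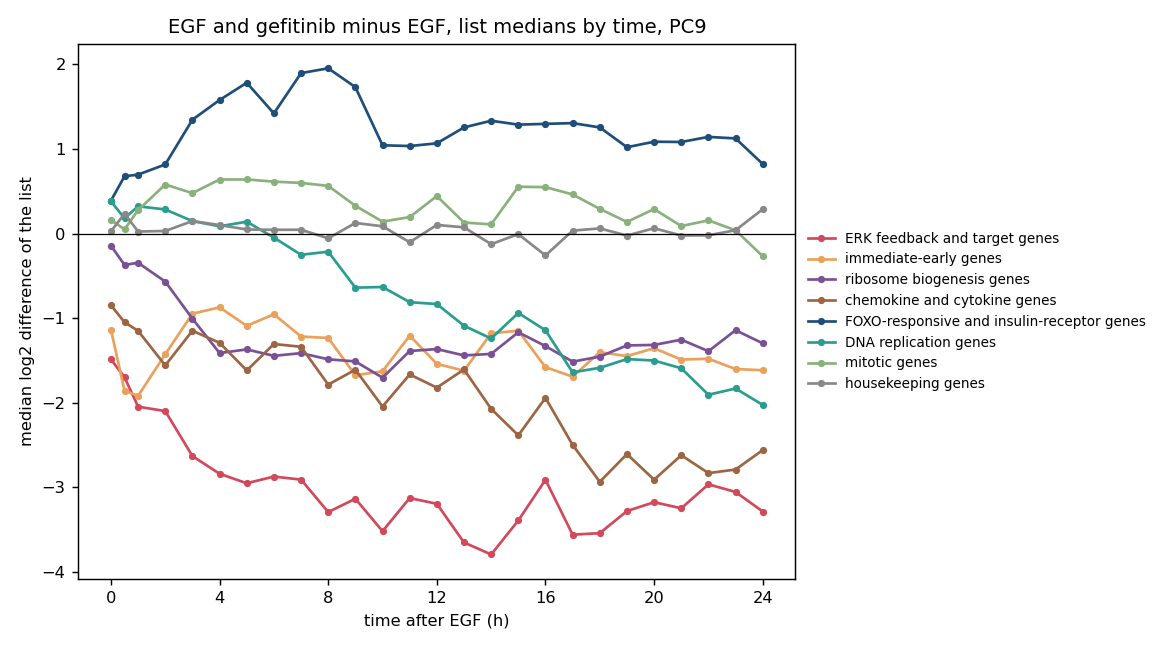
Median over the tested members of a gene list of the log2 difference with gefitinib, against hours after EGF, 1 line per list and 1 pair of arrays per point. The ERK feedback list is at -1.49 in the 0 h pair, whereas the DNA replication list is at 0.38 there and reaches -2.03 at 24 h.

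The largest changes over all genes lay partly outside these lists. Among genes moved in 1 direction at all 25 time points and well above background on at least 13 arrays of each arm, the largest rise was that of ATP6V1B1, a subunit of the proton pump, from 1.85, 4.53 and 6.28 with EGF to 6.63, 11.46 and 13.10 with gefitinib (effect 6.34, SE 0.504, adjusted p = 8.93e-12). The arms did not overlap, although the pair at 0.5 h differed by only 0.35. CYP4B1, a cytochrome P450 of the lung, rose by 5.09, TNFSF10, the death ligand TRAIL, by 4.91 and SELENOP, a selenium carrier, by 4.77. TMT1A, FAM78A, ALPG, POU2F3, SLC25A29, SEMA5B and BDKRB2 had effects of 4.16 to 4.89, POU2F3 being the regulator of tuft cells and BDKRB2 the bradykinin receptor. DEPP1, a FOXO target, stood out by its constancy, with pairs between 3.58 and 5.01 and 3.36 already at 0 h (effect 4.26, SE 0.0703, adjusted p = 4.87e-26).

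Beside DUSP6, SPRY4, EGR1 and HBEGF, the largest falls were those of HSD3B1, a steroid-synthesizing enzyme (effect -5.44, SE 0.377), MARCHF4, a ubiquitin ligase (effect -4.58), STEAP1, a metalloreductase (effect -4.56), ANKRD22 (effect -4.25), G0S2, an inhibitor of fat breakdown (effect -4.06, SE 0.206), IL1RL1, the receptor for interleukin-33 (effect -3.995), and ITGA6, the laminin-binding integrin (effect -3.74). HSD3B1 ran from 9.29, 10.91 and 11.79 with EGF to 3.47, 4.91 and 8.70 with gefitinib, without overlap, and its difference was -0.59 at 0.5 h. TMEM158 had an effect of -3.53, but a brighter probe of the same gene read 0.17, so its change is uncertain. Genes dim in 1 arm were chosen apart. RADIL (effect 7.24, well above background on 8 of 25 EGF arrays), KCNJ13 (5.77, on 3), MGAT3 (5.51, on 10), CCN5 (5.41, on 2) and SOX2, a stem cell factor (5.01, on 6), rose from near background. They passed the filter through the arms with gefitinib, and their sizes rest on EGF arrays that were mostly not well above background. Another probe of SOX2, well above background on 14 EGF arrays, read 2.95, and another of MGAT3, dim in both arms, read 0.27. CD274, which encodes the checkpoint ligand PD-L1, fell by 4.90 (SE 0.267, adjusted p = 5.42e-15) from 6.31, 8.67 and 9.92 to 1.87, 3.70 and 4.75. In the gefitinib arm CD274 cleared the background flag on 9 of 25 arrays, as did ANGPTL4 (effect -4.15).

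Whether the effect grew over the day was tested as the mean difference at 13 to 24 h (n = 12) minus that at 0.5 to 4 h (n = 5). Of 13273 genes with both windows, 7913 were called (59.6% of the tested genes), 3929 positive (29.6%) and 3984 negative (30%). Of these, 4992 had the same sign in both windows and a larger effect late, 287 a smaller one late, and 2634 had opposite signs. The effect itself was called for 4311 genes (32.5%) in the early, 8995 (67.8%) in the middle and 10759 (81.1%) in the late window, with 5, 8 and 12 time points. Among called genes well above background on at least 13 arrays of each arm, the largest late gains were those of ATP6V1B1 (late minus early 6.46, SE 0.49), EEF1AKMT2 (5.06), CYP4B1 (5.03), FGFR1 (4.81) and A4GALT, a glycosyltransferase (4.60). The largest late losses were those of MARCHF4 (-5.15), ARNT2, a partner of bHLH-PAS factors (-5.13), ITGA6 (-5.07), ANKRD22 (-4.99) and IL1R2, a decoy receptor for interleukin-1 (-4.97). ITGA6 shows the pattern: the pair differed by -0.03 at 0.5 h and by -5.86 at 24 h, with medians of 13.50 with EGF and 9.18 with gefitinib. ERK feedback genes, in contrast, had a median difference of -2.12 in the early window already, and one of -3.29 in the late window. Their late minus early difference was called and negative for 9 of 15 and called and positive for 3. Scan days ran with time, so the day and the hour cannot be told apart here.

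Whether EGF altered the drug's effect was tested by the effect with EGF minus that without EGF (gefitinib alone against untreated), pair by pair. The effect without EGF was called for 9598 genes (72.3%). The differences were small: their absolute median over genes was 0.115, and 1759 of 13274 genes were called (13.3%), 1167 positive (8.79%) and 592 negative (4.46%). Of these, 1610 were also called for the effect itself, of which 1304 had a larger effect with EGF, 195 a smaller one, and 111 the opposite sign. Choosing genes by their call with EGF by itself favours a larger effect with EGF, and how much was not tested. Without pairing by time point 26 genes were called, and with time points 3 h apart none was, with 1671 at an unadjusted p under 0.05. DUSP6, with an effect of -7.11 with EGF and -6.95 without, was not called (difference -0.17, SE 0.10, adjusted p = 0.304).

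Among called genes well above background on at least 13 arrays of each arm, CXCL10, an interferon-induced chemokine, had the largest positive difference (1.68, SE 0.28, adjusted p = 0.000154). Its median was 6.26 untreated, 6.45 with gefitinib alone, 4.67 with EGF alone and 6.31 with both, so the arm that stood low was EGF alone. In that arm its probe was well above background on 15 of 25 arrays. LTB, lymphotoxin beta, behaved likewise (1.47, SE 0.20), with medians of 8.56 untreated, 9.75 with gefitinib, 6.86 with EGF and 9.93 with both. ATP6V1B1 (1.29), RDH16 (1.14) and APOL3 (1.12) followed. With EGF alone the probes of ATP6V1B1 and APOL3 were well above background on 14 and 16 of 25 arrays. The largest negative difference was that of MMP1 (-1.86, SE 0.23, adjusted p = 7.49e-06), whose median was 5.74 untreated, 4.23 with gefitinib, 8.12 with EGF and 4.19 with both. Here too the course that stood apart was EGF alone, now high. SPRR1B and CDSN, genes of the cornified envelope and corneodesmosome (-0.99 and -0.94), HK2 (-0.94) and KRT6A, a keratin of activated epidermis (-0.91), were next. The effect of CDSN with EGF was -1.46 by the probe used and -0.36 by a brighter one, so its size is uncertain. The untreated course of HK2 held an array at 1.96 beside a median of 8.86, and its part in the difference was not tested. Among the lists, 17 of 19 mitotic genes had a called positive difference, beside 8.79% of all tested genes, with a median effect of 0.28 with EGF and -0.05 without. For replication genes 11 of 22 had one, and their median effect was -0.82 with EGF and -1.16 without, a smaller fall with EGF. For interferon-stimulated genes 8 of 14 had one, and the median effect was 1.03 with EGF and 0.49 without, a larger rise with EGF.

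The PC9GRM2 pair at 0.5 h went against its labels. Its difference correlated at -0.392 over genes with the mean of the other 25 pairs, where every other pair of that course lay between 0.237 and 0.922 and the lowest in PC9 was 0.275. DUSP6 was 7.75 on the array labelled EGF and 12.53 on the one labelled EGF and gefitinib, SPRY4 was 5.27 and 10.28, and FOS 6.37 and 11.96, while DEPP1 was 11.07 and 7.55 and BMF 10.79 and 8.86. Whether the arrays were exchanged was not tested. Values for PC9GRM2 are therefore given with all 25 pairs as labelled and, for part of them, with the 24 pairs that leave this time point out in both lines. The use of 24 pairs was chosen after seeing the data. PC9GRM2 values that do not name the 24 pairs include this pair.

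In PC9GRM2 the same treatments gave a called effect for 9926 genes (74.8%), or 10019 (75.5%) over 24 pairs, and a smaller one than in PC9 for many. The effect in PC9GRM2 minus that in PC9 was called for 6522 of 13274 genes (49.1%), 3051 positive (23%) and 3471 negative (26.1%). Over 24 pairs it was called for 6666 (50.2%), 3100 positive (23.4%) and 3566 negative (26.9%), of which 6365 were also called over 25. Without pairing by time point this count was 2604, a random block for the scan day gave 2605, and time points 3 h apart gave 1916. Of the 5699 genes also called in PC9, 4013 had a smaller effect of the same sign in PC9GRM2, 829 a larger one and 857 the opposite sign. Over 24 pairs these were 3979, 953 and 863 of 5795. Choosing genes by their call in PC9 by itself favours a smaller effect in PC9GRM2, and how much was not tested. Over all tested genes, without that choice, the median absolute effect was 0.385 in PC9GRM2 and 0.490 in PC9, or 0.403 and 0.506 over 24 pairs. The lines shared no slide and no scan day, and the PC9GRM2 arrays had no saturated features, so line and array batch cannot be told apart.

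The fall of the ERK readouts was smaller in PC9GRM2. The median effect of the ERK feedback list was -1.29 there and -3.18 in PC9 (-1.37 and -3.21 over 24 pairs). The difference was called and positive for 14 of 15 members both with and without the 0.5 h pair, beside 23% of all tested genes. Among called genes well above background on at least 13 arrays of both PC9 arms, EGR1 had the most positive difference over 25 pairs (4.72, SE 0.32, adjusted p = 2.53e-11), and over 24 it was second (4.50, SE 0.261). Over the 24 pairs its log2 signals in PC9GRM2 were 8.69, 9.44 and 12.86 with EGF and 7.20, 9.95 and 11.28 with both agents. These arms overlapped, and the effect in PC9GRM2 was 0.15 (0.37 over 25 pairs).

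DUSP6 had a difference of 4.68 (SE 0.41, adjusted p = 1.14e-09), and over 24 pairs one of 4.53 (SE 0.399), the highest there. Its log2 signals in PC9GRM2 were 12.61, 13.52 and 13.87 with EGF and 7.84, 11.23 and 11.52 with both agents over the 24 pairs, without overlap, so it fell in this line too (effect -2.73, or -2.43 over 25 pairs). FOS (2.86, SE 0.33), SPRY4 (2.79, SE 0.37) and CYP24A1, which inactivates vitamin D (2.78, SE 0.34), came after these over 25 pairs. Over 24 pairs they gave 2.55, 2.51 and 2.88, and the order changed. CYP24A1, ESPNL (2.78) and IL1RL1 (2.56) then stood ahead of FOS and SPRY4. ESPNL had an effect of -1.11 in PC9 and of 1.67 in PC9GRM2 over these pairs. PIK3IP1 and BMF had larger effects in PC9GRM2 than in PC9, at 3.77 and 4.91, with differences of 0.61 (SE 0.21, adjusted p = 0.0187) and 0.83 (SE 0.21, adjusted p = 0.00171), or 0.81 and 1.02 over 24 pairs. The FOXO-responsive list to which PIK3IP1 belongs did not share this direction, with 3 positive and 4 negative called differences of 15 (5 and 4 over 24 pairs). Its median effect was lower in PC9GRM2 (0.89) than in PC9 (1.28), also over 24 pairs (0.95 and 1.36).

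By the same rule on brightness in PC9, which leaves out dim genes such as RADIL (-4.28) and KCNJ13 (-2.89), the most negative differences between the lines were those of ZBED2 (-3.37, SE 0.23, adjusted p = 1.69e-11), OLFM4 (-2.80), PDZK1IP1 (-2.66), A4GALT (-2.59) and LTB (-2.30), each of which rose in PC9 and had an effect between -0.60 and 0.57 in PC9GRM2. ZBED2, a transcription factor, had medians of 5.53 and 8.64 in PC9 and 7.15 and 6.45 in PC9GRM2, so it rose in the one and was lower in the other. PDZK1IP1 was well above background on none of the 50 PC9GRM2 arrays and OLFM4 on 3, so for these a rise in PC9 is set against values at background in PC9GRM2. All 19 mitotic genes had a called negative difference, beside 26.1% of all tested genes, with a median effect of -0.28 in PC9GRM2 (-0.29 over 24 pairs, again all 19). All 17 sterol and fatty acid genes did too, also over 24 pairs. Their median effect was -0.997 in PC9GRM2 and -0.45 in PC9 over 25 pairs, and -1.036 and -0.471 over 24 pairs. FGFR1 rose in both lines, by 4.08 in PC9 and 2.19 in PC9GRM2, as did ERBB3, by 2.22 and 1.91.

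**Figure D5:**
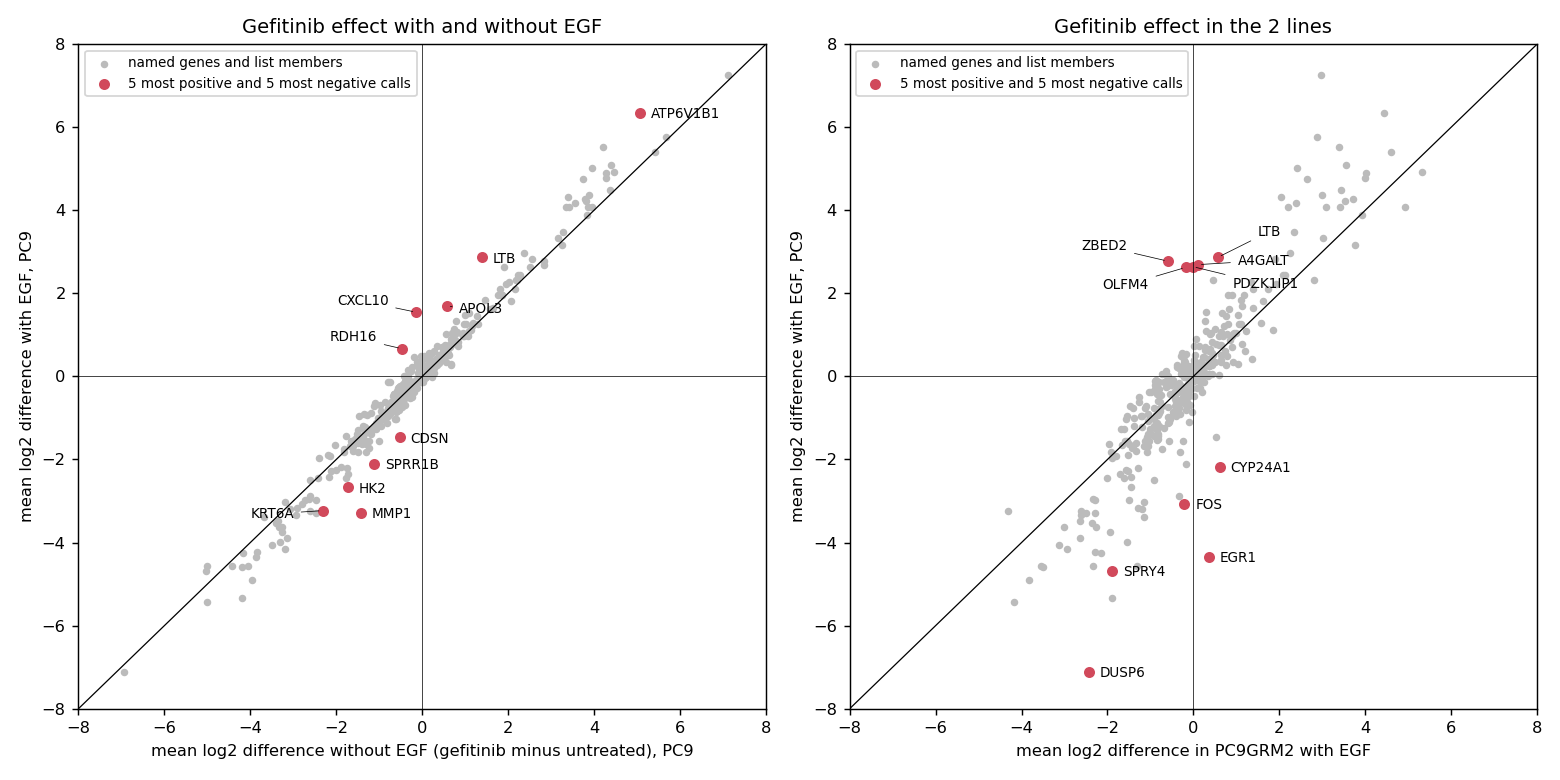
Gefitinib effect with EGF in PC9 (vertical axis, mean log2 difference) against the effect without EGF in PC9 (left) and the effect with EGF in PC9GRM2 (right), 1 point per named gene or list member, with the line of equality. Red points are the 5 most positive and 5 most negative called differences among genes well above background on at least 13 arrays of both PC9 arms. On the left each lies closer to the line than any on the right, and MMP1 is farthest from it (-1.43 without EGF, -3.29 with). On the right EGR1 and DUSP6 lie far below it. The PC9GRM2 values include the 0.5 h pair as labelled.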

How the data were processed

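RNA (TRIzol) from PC9 and PC9GRM2 cells grown in serum-containing RPMI1640 before starvation was labelled with Cy3 and hybridised to one-colour Agilent arrays. The authors deposited, per array, the background-corrected spot intensity from Feature Extraction (version 10.5.1.1 in the file headers; design on build hg18) and a table of quantile-normalized intensities. Here the 208 arrays of 45015 features were quantile normalized as the authors did, floored at 1 and put on a log2 scale, and outlier spots (0.1508% of values) were removed. Each gene was read from its most variable probe, named through its RefSeq accession (24794 of 41000 probes matched, 16961 genes). Genes well above background on 13 of 26 arrays in any of the 8 courses were tested (13274, with 3687 left out), and 23 listed genes were not among them.

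Differences at matched time points were tested with limma 3.58.1 (R 4.3.3, two-sided, Benjamini-Hochberg at 0.05). The procedure was run on simulated differences with noise drawn independently for each time point, which leaves out the correlation between time points given below. Time points are the pairs: the 4 treatments of a time point shared a slide. Nothing in the labels says that time points came from separate cultures, and consecutive differences were correlated (median lag-1 autocorrelation 0.457). The number of arrays limits the precision.

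The text names genes of the lists, the 12 largest rises and falls constant over all time points (and 5 each that were dim in the lower arm), and the 5 most positive and most negative of each other comparison. Members and lists were chosen with earlier results of these data known. Sequences come from RefSeq promoters (GRCh38.p14), and motifs were searched on both strands from 250 bases before to 50 after the start in 10697 tested genes. Alternatives changed the normalization, background correction, probe choice, filter, floor, pairing, time points, scan day, call rule and test. Leaving out the 16 h pair or the 0.5 h pair and requiring 1 sign on all 8 scan days were added after seeing the data. Some list members are counted in their lists but not reported here by name.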

Additional observations from a re-analysis of the deposited data

Results flagged for a closer look

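The results listed here differ between conditions by a test of the difference itself, limma on the paired differences. The genes named are the 5 most positive and 5 most negative among called genes well above background on at least 13 arrays of both PC9 arms, so dimmer genes with larger differences, such as KCNJ13 (late minus early 5.13), RADIL (PC9GRM2 minus PC9 -4.28) and CXCL8 (3.43), are not among them. The effect of gefitinib in EGF-stimulated PC9 differed between the late and the early window for 7913 genes. The most positive late minus early differences were 6.46 for ATP6V1B1, 5.06 for EEF1AKMT2, 5.03 for CYP4B1, 4.81 for FGFR1 and 4.60 for A4GALT. The most negative were -5.15 for MARCHF4, -5.13 for ARNT2, -5.07 for ITGA6, -4.99 for ANKRD22 and -4.97 for IL1R2.

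With and without EGF the effect differed for 1759 genes. The difference was 1.68 for CXCL10, 1.47 for LTB, 1.29 for ATP6V1B1, 1.14 for RDH16 and 1.12 for APOL3 on the positive side. On the negative side it was -1.86 for MMP1, -0.99 for SPRR1B, -0.94 for CDSN, -0.94 for HK2 and -0.91 for KRT6A. The difference in effect was positive in 21 of 25 pairs for CXCL10 and negative in 23 for MMP1.

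Between PC9GRM2 and PC9 it differed for 6522 genes. The most positive values were 4.72 for EGR1, 4.68 for DUSP6, 2.86 for FOS, 2.79 for SPRY4 and 2.78 for CYP24A1. The most negative were -3.37 for ZBED2, -2.80 for OLFM4, -2.66 for PDZK1IP1, -2.59 for A4GALT and -2.30 for LTB. These values include the PC9GRM2 pair at 0.5 h, which went against its labels. Without it they were 4.50 for EGR1, 4.53 for DUSP6, 2.88 for CYP24A1, 2.55 for FOS, 2.51 for SPRY4 and -3.40 for ZBED2. ESPNL (2.78) and IL1RL1 (2.56) then stood ahead of FOS and SPRY4. EGR1 had the positive sign in 24 of 25 pairs and ZBED2 the negative sign in 25.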

How the results depend on the processing

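The count of genes with a gefitinib effect (10504) stayed within 1.5 times under the other normalizations, probe choices, filters, floor, scan day as a random block, the inflated variance, the methods' t-test and without the 16 h or the 0.5 h pair, and with time points 3 h apart it was 7335. It was 3031 with a 2-fold minimum and 6455 with 1 sign required on all 8 scan days. Without the pairing it was 9010, of which 9005 were shared, and the late minus early count was 5613. Late minus early calls fell to 2513 when time points 3 h apart were used, and a 2-fold minimum left 3358. Differences with against without EGF numbered 26 without the pairing, 0 with time points 3 h apart by limma (1671 at an unadjusted p under 0.05) and 23 with a 2-fold minimum. Differences between the lines numbered 2604 without the pairing, 1916 with time points 3 h apart, 2605 with scan day as a random block, 574 with a 2-fold minimum and 6666 without the 0.5 h pair. Fewer time points and the stricter rule shrink these counts by construction, and the cause of the others was not tested. With time points 3 h apart, called mitotic genes numbered 7 and called BH3-only genes 4, while all 15 ERK feedback genes were called. TMEM158 turned to 0.17 with its brighter probe. Dim signal limits CXCL8 and CSF2 in the gefitinib arm.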
